A study of Mus musculus with 6 samples.

Results

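The data compared here are repeat-derived RNA from the testes of Dnmt3L knockout mice at 20 days post partum (20dpp) and at 10dpp. They come from 2 of 6 libraries, the knockout library of each of these ages. Families with at least 50 counts in both files together were kept, which gave 722 of the 787 repeat families listed in the series, and a log2 ratio of 20dpp to 10dpp was taken for each. The other 65 families had fewer counts. Just inside that minimum lay LTR80B with 50.2 counts and Helitron2Na_Mam with 53, and just outside it MamRep1879 with 48.1 and MLT2E with 47.

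RNA was extracted from whole testes of C57BL/6 mice, and each library is a pool, of 3 mice at 10dpp and 20dpp and of 7 or 8 at 16.5 days post coitum (16.5dpc). The knockout groups carry the Dnmt3L knockout at every age. The control group at 16.5dpc and 10dpp is heterozygous for Dnmt3L, whereas the control group at 20dpp is wild type, so the control pair set beside the knockout pair changes genotype along with age. No treatment is named for any group, and the labels do not describe how the knockout allele was built. With 1 pooled library a group, no ratio between these libraries has a replicate check, and the spread between animals is unknown.

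Dnmt3L has no methyltransferase activity of its own. It assists the de novo DNA methyltransferases that methylate retrotransposons in the prospermatogonia of the fetal testis, and males without it are sterile, with germ cells that are lost around meiosis. Retrotransposons move through an RNA copy. LINE-1 elements encode their own reverse transcriptase, SINEs such as B1 and B2 use the LINE-1 proteins, and endogenous retroviruses (ERVs) carry long terminal repeats (LTRs), which hold the promoter, on either side of an internal part that encodes the viral proteins or what is left of them. DNA transposons move without an RNA copy, and the mouse families are old and thought to be immobile.

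The listed repeat counts sum to 1671536 in the 10dpp knockout library and 11239673 in the 20dpp knockout library, which is 6.72 times as many. Levels are given as CPM, counts per 1000000 listed repeat counts after TMM scaling (trimmed mean of M values, which assumes that most families keep their level). CPM takes no account of the length or copy number of a family, so levels are compared between libraries and not between families. Each ratio carries an exact 95% interval that covers counting error only. A ratio of 2-fold serves as a mark of size, not as a test. The files list repeat families and no genes, so neither the Dnmt3L transcript nor the markers of testis cell types could be read to check the labels. In whole testis, fewer cells of a type and less RNA per cell cannot be told apart, and in normal testes the germ cell stages present differ between 10dpp and 20dpp. Age likewise cannot be told apart from the library, its depth and its sequencing.

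Young LINE-1 subfamilies and several groups of mouse ERVs made up more of the repeat RNA of the knockout testis at 20dpp than at 10dpp. The 3 young LINE-1 subfamilies took 1.74% (1.72 to 1.76) of the listed counts at 10dpp and 5.18% (5.16 to 5.19) at 20dpp, where the values in brackets are exact 95% Clopper-Pearson bounds. The MMERVK10C group of ERVs went from 0.555% (0.543 to 0.566) to 2.07% (2.06 to 2.08), and the intracisternal A particle (IAP) group from 2.41% (2.39 to 2.44) to 3.70% (3.69 to 3.71). Mouse ERV1 entries had 1.97% and then 3.21%, and the ETn/MusD group 0.420% and then 0.966%. Older LINE-1 families took smaller shares at 20dpp, 11.96% and then 8.24% for the other rodent LINE-1 families and 6.198% and then 4.68% for the ancient ones. The B1/B2 SINE group was the largest share in both libraries, with 47.4% at 10dpp and 44.7% at 20dpp. In the control pair the shares of these ERV groups were also larger at 20dpp, and those of the older LINE-1 groups smaller. The control shares went from 0.412% to 1.07% for MMERVK10C and from 1.06% to 2.01% for IAP. Control mouse ERV1 went from 1.55% to 2.53% and ETn/MusD from 0.339% to 1.03%, while young LINE-1 had 1.58% and 1.56%. Shares sum to a fixed total, so a larger share of one group lowers the others.

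**Figure D1:**
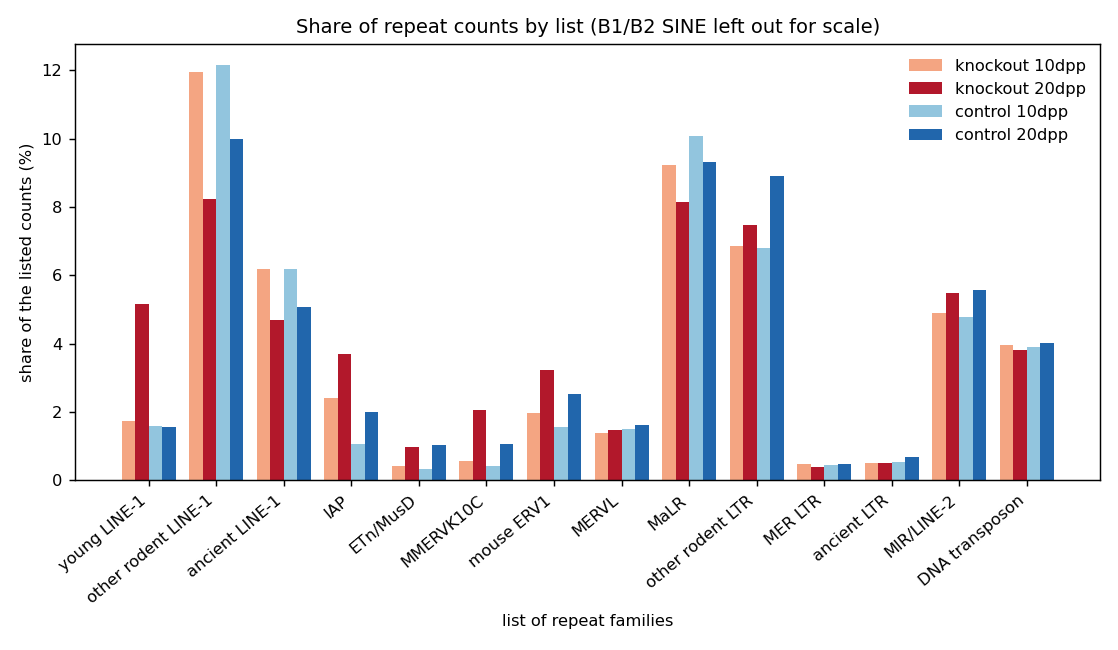
Share of the listed repeat counts (vertical axis, percent, from 0) taken by each of 14 family groups (horizontal axis) in the knockout and control libraries of 10dpp and 20dpp, 1 bar a library, with the B1/B2 SINE group left out for scale. In the knockout, the young LINE-1 share went from 1.74% at 10dpp to 5.18% at 20dpp, while in the control it was 1.58% and 1.56%. The control shares of IAP, MMERVK10C, mouse ERV1 and ETn/MusD were larger at 20dpp, as in the knockout.

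Of the 722 families, 54 were higher at 20dpp by 2-fold or more (7.48%) and 29 were lower by 2-fold or more (4.02%). All 83 of these ratios had an interval that excluded a log2 ratio of 0. Dividing by the total of the listed counts in place of TMM lowers every log2 ratio by 0.16 and turns the split into 38 higher and 46 lower, so the balance between the 2 directions depends on the scaling. The families at least 2-fold higher held 4.69% of the listed counts at 10dpp and 12.9% at 20dpp, whereas those at least 2-fold lower held 0.591% and 0.204%. The higher side thus held far more of the repeat RNA than the lower side. Both sets were picked by these same ratios, so the direction in which their knockout shares differ follows from that choice. In the control libraries the higher set held 3.71% at 10dpp and 7.29% at 20dpp, and the lower set 0.50% and 0.22%. Intervals lay above 0 for 257 families, below 0 for 246 and across 0 for 219, and the median log2 ratio, at -0.01, was near 0 with a sign that depends on the scaling. Past 4-fold there were 10 higher and 4 lower families.

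**Figure D2:**
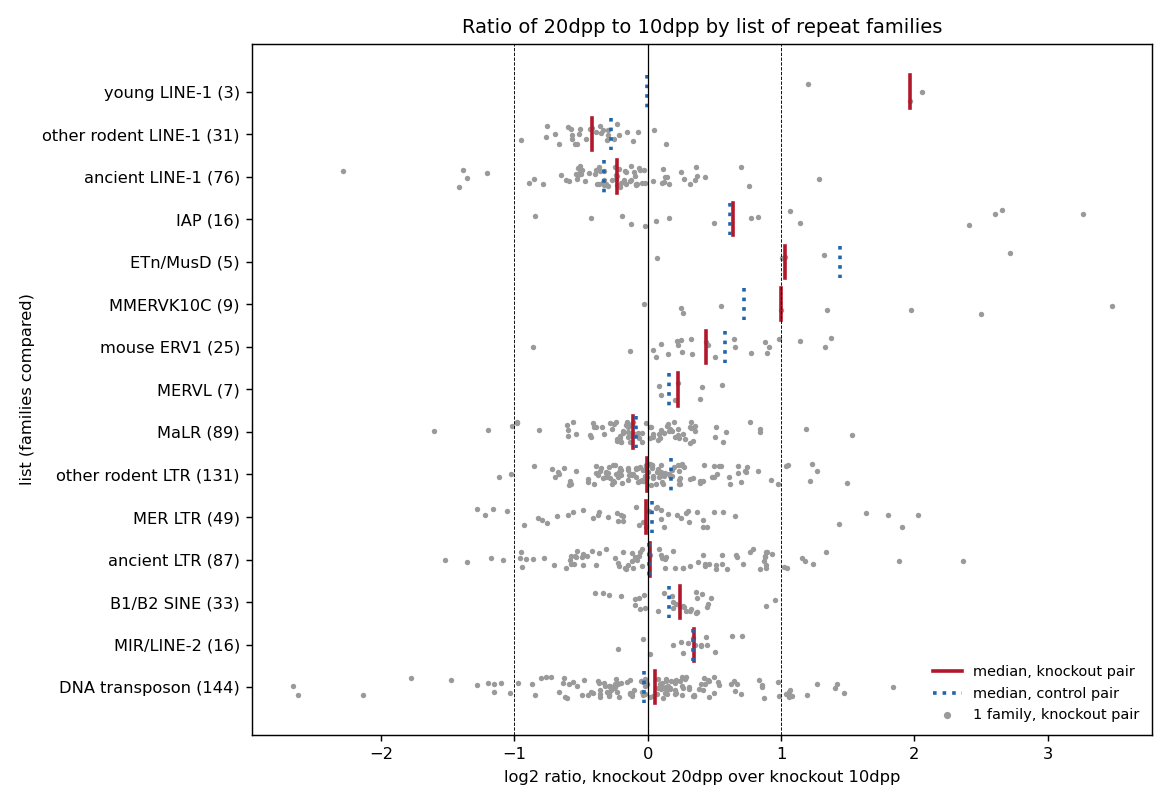
Log2 ratio of 20dpp to 10dpp in the knockout (horizontal axis) for each of the 15 family groups (vertical axis), 1 point per family, with a red line at each group's median and a dotted blue line at the median of the control pair. The medians of young LINE-1 (1.97), ETn/MusD (1.03) and MMERVK10C (1.002) lie farthest to the right, and that of the other rodent LINE-1 families (-0.42) farthest to the left.

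Among LINE-1 elements, the families that still hold full-length, potentially active copies were higher at 20dpp and most others were lower. L1Md_T, a young subfamily, stood at 10529 CPM at 10dpp and 41208 CPM at 20dpp, which is 3.91-fold (95% interval 3.86 to 3.97). In the fetal knockout testis at 16.5dpc it had been at 14361 CPM, and the 3 control libraries from 16.5dpc to 20dpp had 12335, 9632 and 9611 CPM. The 20dpp knockout library was thus the highest of the 6, and the 10dpp knockout library lay close to both postnatal controls. L1Md_Gf, another young subfamily, went from 385 to 1605 CPM, 4.16-fold higher (95% interval 3.85 to 4.52), against 363 and 508 CPM in the controls. L1Md_A, the third young subfamily, had 6376 CPM at 10dpp and 14690.5 CPM at 20dpp, 2.30-fold higher (95% interval 2.26 to 2.35), while its control values were 5463 and 5144 CPM. All 3 were past 2-fold in the knockout, beside 7.48% of all families, and 0 of 3 in the control, beside 9.89% of all families there.

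**Figure D3:**
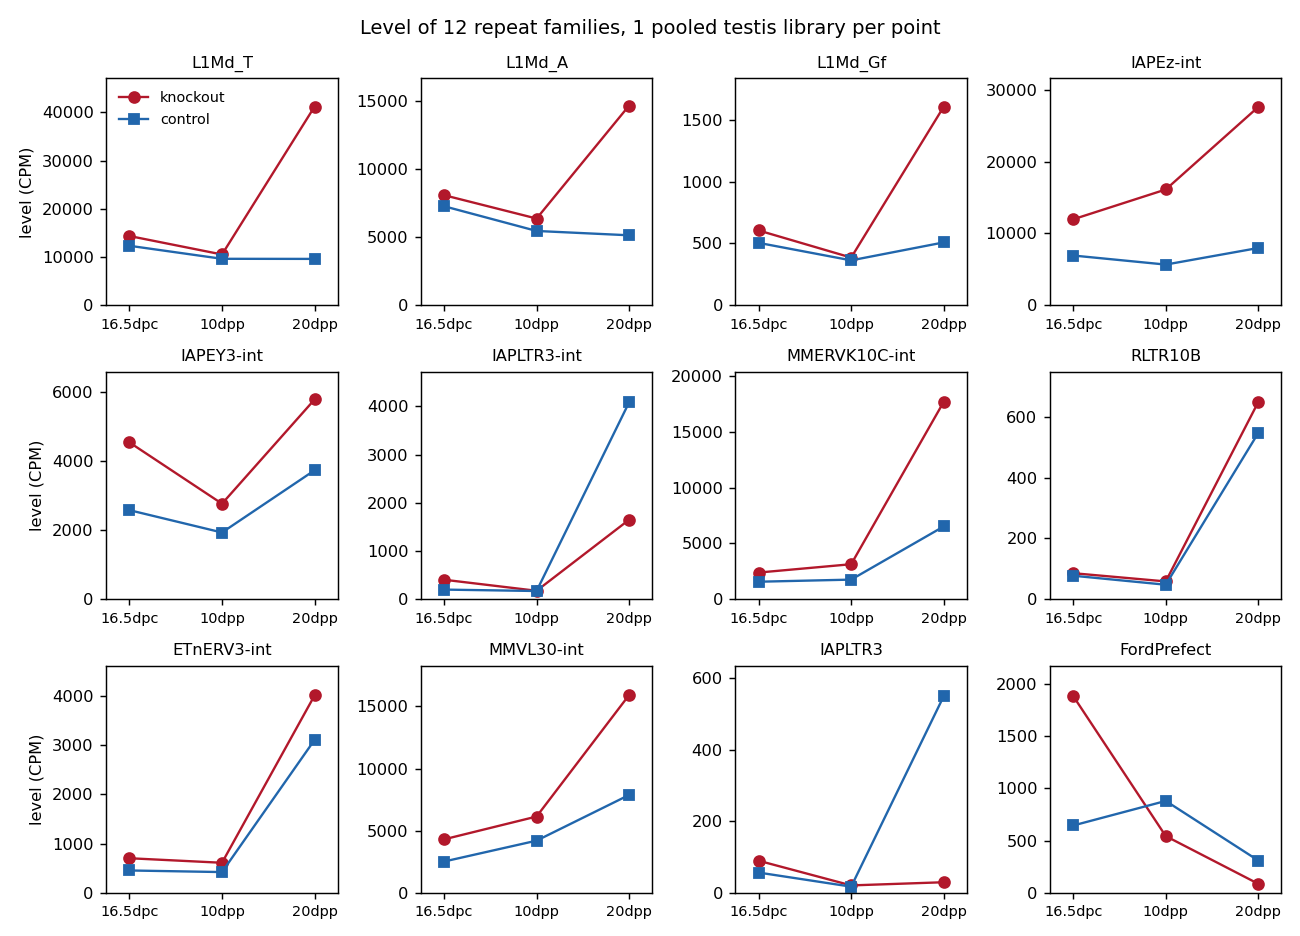
Levels (CPM, linear axes from 0) of named families in the 6 libraries at 16.5dpc, 10dpp and 20dpp, with control and knockout as separate lines and 1 library a point. The L1Md_T panel shows 10529 CPM at 10dpp and 41208 CPM at 20dpp in the knockout, against 9632 and 9611 CPM in the controls.

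The other 31 rodent LINE-1 families are mostly older. Their median log2 ratio was -0.42, with 28 intervals below 0 and 1 above, and 0 of them reached 2-fold in either direction. L1Md_F2, an abundant older subfamily, was at 15758 CPM at 10dpp and 13604 CPM at 20dpp (log2 ratio -0.21, -0.23 to -0.19). The lowest was Lx3_Mus, with 2277 and 1176 CPM (-0.95, -1.01 to -0.90). The 1 family on the other side was L1_Mm, at 2343 and 2572 CPM (0.13, 0.09 to 0.18), and its ratio turns negative (-0.025) when the total is used for scaling. The control pair had a median of -0.28 over the same 31 families. Ancient LINE-1 families, fossils shared with other mammals, had a median of -0.23 in the knockout over 76 families, with 44 intervals below 0 and 12 above.

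Within the ancient LINE-1 group, 5 families (6.58%) were at least 2-fold lower at 20dpp and 1 (1.32%) was at least 2-fold higher, beside 4.02% and 7.48% of all families. L1MEa had 70.9 CPM at 10dpp and 14.5 at 20dpp, so that it was 4.88-fold lower at 20dpp (95% interval 3.79 to 6.25). HAL1-3A_ME, a LINE-1-like element, had far more counts and a narrower interval, with 2751 CPM at 10dpp and 1030.2 CPM at 20dpp, 2.67-fold lower (95% interval 2.58 to 2.76). Both were lower in the control pair as well, with log2 ratios of -1.82 and -1.36. L1MEg1 was 2.61-fold lower on 37 counts at 10dpp and 86 at 20dpp. The highest, L1M3f, rested on 5 counts at 10dpp against 80 at 20dpp, and its log2 ratio of 1.28 had an interval of 0.13 to 3.07.

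IAP elements are ERVs that assemble particles inside the cell and still insert in laboratory mouse strains. Of the 16 IAP entries, 9 had an interval above 0, 2 below and 5 across it, and 6 were past 2-fold, a mark that 7.48% of all families reached, or 4 with the total as scaling. IAPEz-int, the internal part of the most abundant IAP type, was at 16136 CPM at 10dpp and 27648 CPM at 20dpp in the knockout, 1.71-fold higher (95% interval 1.69 to 1.74). At 16.5dpc the knockout had 11979 CPM, and the controls had 6929, 5666 and 7980.0 CPM at the 3 ages. IAPEz-int was already higher in the knockout than in the control at 10dpp, and the control pair was also higher at 20dpp, by 1.41-fold.

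The highest ratios of the group belonged to rarer IAP entries. IAPLTR3-int, an internal part, went from 171 to 1647 CPM, 9.62-fold higher (95% interval 8.58 to 10.9), and from 166 to 4085 CPM in the control, where the ratio was 24.6-fold. IAPEy-int, another internal part, stood at 118.9 CPM at 10dpp and 726 CPM at 20dpp, 6.09-fold higher (95% interval 5.30 to 7.05), against 2.68-fold in the control. IAPLTR4, an LTR entry, and IAPLTR4_I, its internal part, were 6.31-fold and 5.30-fold higher, and 4.10-fold and 4.50-fold higher in the control. In the control pair these 4 entries were thus also higher at 20dpp. The intervals of the 2 genotypes did not overlap for IAPEy-int and IAPLTR4, with the smaller ratio in the control, nor for IAPLTR3-int, with the larger ratio in the control, and they overlapped for IAPLTR4_I. IAPEY_LTR and IAPEY3-int were just past 2-fold in the knockout, with log2 ratios of 1.14 and 1.07, and IAP-d-int was at 0.82.

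Most LTR entries had lower ratios than the internal parts. IAPLTR1_Mm, the LTR that flanks IAPEz-int, was at 1987 CPM at 10dpp and 2225 CPM at 20dpp (log2 ratio 0.16, 0.11 to 0.22), a difference about as large as the shift between scalings. The 2 entries with intervals below 0 were IAPLTR2a at -0.43 (-0.56 to -0.29) and IAPLTR2_Mm at -0.85 (-0.92 to -0.77). IAPLTR2_Mm had 1145 CPM at 10dpp and 637 CPM at 20dpp in the knockout, and 512 and 538 CPM in the control. It was thus lower in the knockout at 20dpp while the control pair hardly differed. The intervals of IAPLTR1a_Mm, IAPLTR2b, IAPEY3_LTR, IAPEY2_LTR and IAPLTR3 all spanned 0.

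The MMERVK10C group gathers the internal part of a young mouse ERV and the RLTR10 entries, its LTRs and their relatives. Of 9 entries, 8 had intervals above 0, 0 below, and 5 were at least 2-fold higher (7.48% over all families). MMERVK10C-int was at 3127 CPM at 10dpp and 17720.1 CPM at 20dpp, 5.67-fold higher (95% interval 5.51 to 5.83). Its other libraries had 2378 CPM in the 16.5dpc knockout and 1554, 1743 and 6522 CPM in the controls of rising age. Both genotypes were higher at 20dpp than at 10dpp, and the knockout library stood above the control at 16.5dpc, 10dpp and 20dpp alike. RLTR10C, an LTR of this group, had 602 and 1532 CPM in the knockout, 2.54-fold higher (95% interval 2.39 to 2.71), and 505 and 569 CPM in the control, 1.13-fold.

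RLTR10B had the highest ratio of all 722 families, with 58.1 CPM at 10dpp and 650.4 CPM at 20dpp, 11.1-fold higher (95% interval 9.13 to 13.8). The control pair gave almost the same values, 47.2 and 548 CPM, so that this LTR was high at 20dpp in both genotypes. Its relative RLTR10B2 was 3.93-fold higher in the knockout and 4.28-fold higher in the control. RLTR10-int was at a log2 ratio of 1.002 (0.92 to 1.09). The remaining entries lay lower, RLTR10E at 0.55, RLTR10 at 0.27, RLTR10D at 0.25 and RLTR10A at -0.03, the last with an interval across 0. Near-identical subfamilies such as these may share reads, and how the deposited counts divided such reads is not given in the sources used here.

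ETn elements are ERVs without functional genes of their own that are mobilised by the proteins of the related MusD elements. All 4 internal entries of this group were at least 2-fold higher at 20dpp in the knockout, as they were in the control, beside 7.48% of all families in the knockout. ETnERV2-int and MMETn-int lay so close to the mark that 2 of the 4 were past it with the total or the upper quartile as scaling. ETnERV3-int went from 611 to 4014 CPM in the knockout, 6.57-fold higher (95% interval 6.17 to 6.99), and from 422 to 3110.2 CPM in the control. ETnERV-int and MMETn-int had log2 ratios of 1.32 (1.11 to 1.54) and 1.03 (0.93 to 1.13). ETnERV2-int, with 2326 and 4685 CPM, was just past 2-fold (1.01, 0.96 to 1.06). The LTR entry RLTRETN_Mm was near 0 (0.07, -0.03 to 0.17), and its sign turns under scaling by the total. The knockout ratio was below the control ratio in all 5 entries, with a median of 1.03 against 1.44.

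The mouse ERV1 group holds the murine leukaemia virus relatives, the VL30 elements, which lack viral genes and travel in the particles of other viruses, and the GLN elements. Of its 25 entries, 18 had an interval above 0 and 1 had one below. The median was 0.44, and 3 entries (12%) were past 2-fold, beside 7.48% of all families. MMVL30-int was at 6139 CPM at 10dpp and 15921 CPM at 20dpp in the knockout, 2.59-fold higher (95% interval 2.54 to 2.65), and at 4198 and 7875 CPM in the control. Its LTR, RLTR6_Mm, gave 1432 and 3601 CPM, 2.51-fold (95% interval 2.41 to 2.62). MMERGLN-int, the internal part of GLN, was 2.21-fold higher (95% interval 2.09 to 2.34), and RLTR1, an LTR paired with it here, had a log2 ratio of 0.65 (0.36 to 0.95). MuLV-int, the leukaemia virus internal part, stood at 949 and 1623 CPM (0.77, 0.70 to 0.85), and RLTR4_Mm, its LTR, at 1147 and 1375 CPM (0.26, 0.19 to 0.33). The 1 entry below 0 was LTRIS3, with 133 counts at 10dpp and 441 in the deeper 20dpp library (-0.86, -1.14 to -0.57).

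MERVL and its MT2 LTRs, known for their RNA in the early embryo, differed little between the ages. All 7 entries had intervals above 0 but none reached 2-fold, and the median was 0.23. MERVL-int was at 2425 CPM at 10dpp and 2598 CPM at 20dpp (0.10, 0.05 to 0.15), MT2_Mm at 0.20, and MT2C_Mm was the highest at 0.56 and MT2A the lowest at 0.08. When counts are scaled by their total, MERVL-int and MT2A turn negative, 4 of the 7 intervals lie above 0 and 2 below, and the median is 0.07. MaLR elements are non-autonomous relatives of MERVL. Their 89 families had a median of -0.11, with 24 intervals above 0 and 43 below, and 2-fold or more was reached by 2 on the higher side (2.2%) and 3 on the lower side (3.37%), both under the shares over all families. MLT1E3, the highest MaLR family, had 224 CPM at 10dpp and 649.8 CPM at 20dpp, 2.90-fold higher (95% interval 2.61 to 3.22), and MLT1E2-int, the lowest, was 3.04-fold lower (95% interval 1.74 to 5.07) on 23 counts at 10dpp and 46 at 20dpp.

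Internal parts had higher ratios than the LTR set beside them in most of the rodent LTR elements compared. The pairs are 50 whose internal and LTR entries share a name and 7 assigned by hand from what is known of the elements. Of these 57 pairs, the internal ratio was the higher in 36, and the 2 intervals did not overlap in 38 pairs, 26 with the internal part higher and 12 with the LTR higher. Among the 19 pairs of rodent LTR elements outside MaLR, the internal part was higher in 15, in 12 of them with intervals apart, and in 0 pairs was the LTR higher with intervals apart. Of the 12 paired by name alone, the internal part was higher in 9, in 7 with intervals apart. These counts depend on the partners chosen. MMERVK10C-int was paired with RLTR10C and had a lower ratio than RLTR10B of the same group, with intervals apart, and IAPLTR4_I, which was not paired, had a lower ratio than IAPLTR4, with overlapping intervals. The median difference over these 19 pairs was 0.51 on the log2 scale. Among 35 MaLR pairs the internal part was higher in 19, the intervals were apart with the internal part higher in 13 and with the LTR higher in 11, and the median difference was 0.01. MaLR internal parts ranged from -1.61 to 1.19 and MaLR LTRs from -0.34 to 0.84.

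The gap was widest for IAPLTR3, whose internal part had a log2 ratio of 3.27 and whose LTR had 0.50 (-0.0034 to 1.05). MMERVK10C-int stood at 2.502 and RLTR10C at 1.35, ETnERV-int at 1.32 and RLTRETN_Mm at 0.07, and IAPEz-int at 0.78 and IAPLTR1_Mm at 0.16. For the VL30 elements the 2 parts had overlapping intervals, with 1.37 for MMVL30-int and 1.33 for RLTR6_Mm. In the control pair IAPLTR3-int had 4.62 and IAPLTR3 had 4.98, with overlapping intervals, so this gap was absent there. MMVL30-int was below its LTR in the control, 0.91 against 1.14. The internal part stayed the higher in the control for MMERVK10C-int (1.90 against 0.17), ETnERV-int (1.81 against 0.35) and IAPEz-int (0.49 against -0.23). Across all 57 pairs, 11 differed by at least 2-fold with intervals apart and 11 differed by at most 0.2. The ratios lay on opposite sides of 0 in 19 pairs, in 9 of them with both intervals excluding 0. An LTR can stand alone in the genome without its internal part, and LTR reads can come from such solitary copies, whose part in these differences was not tested.

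**Figure D4:**
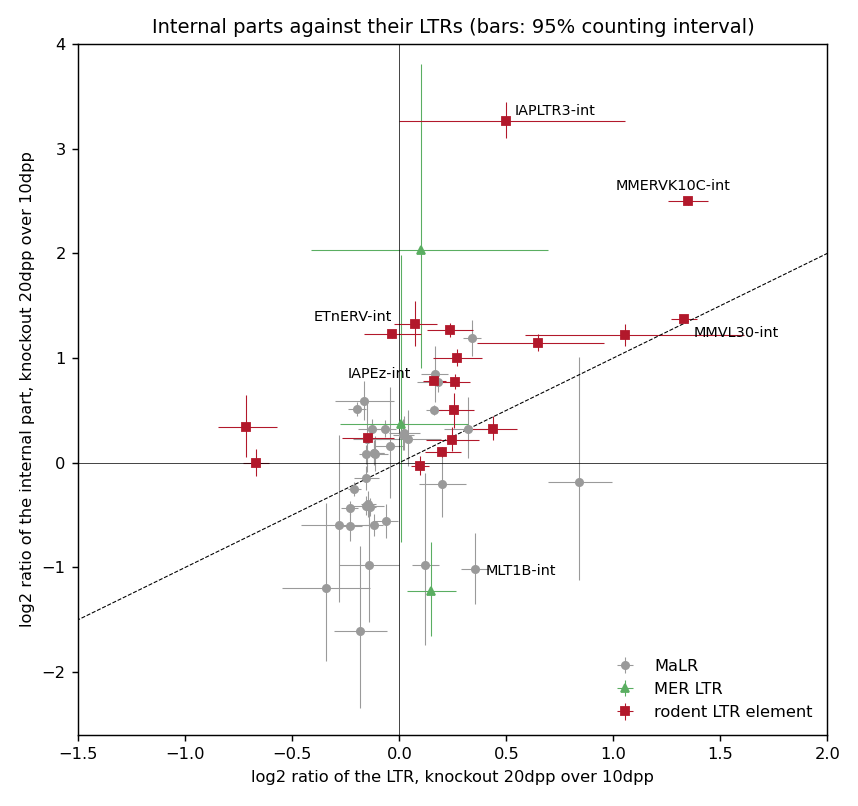
Log2 ratio of 20dpp to 10dpp in the knockout for the LTR entry (horizontal axis) and the internal entry (vertical axis) of each of 57 pairs, with a dashed line where both are equal. In 36 pairs the point lies above the line, with IAPLTR3 (0.50 for the LTR, 3.27 for the internal part) farthest from it.

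The remaining LTR groups had medians near 0, and the ancient LTR and MER LTR groups held some of the most extreme ratios on few counts. The 131 other rodent LTR families had a median of -0.01, and 44 intervals lay above 0 and 41 below. Past 2-fold there were 6 higher (4.58%) and 2 lower families (1.53%), fewer than the 7.48% and 4.02% over all families. RNERVK23-int, the highest of them and the internal part of an ERVK, was at 2813 and 7912 CPM, 2.81-fold higher (95% interval 2.73 to 2.90), and RLTR44C, the lowest, was 2.16-fold lower (95% interval 1.83 to 2.55). In the ancient LTR group (87 families, median 0.02), LTR81B had 16.1 CPM at 10dpp and 84.3 CPM at 20dpp, 5.15-fold higher (95% interval 3.58 to 8.01). LTR64 had 2 counts at 10dpp and 55 at 20dpp, a ratio of 3.69-fold with a counting interval of 1.21 to 38.7, and LTR80B was 2.86-fold lower (95% interval 1.46 to 5.28) on 16 and 34 counts. Among 49 MER LTR families (median -0.01), MER110-int and MER49 were 4.08-fold (95% interval 1.87 to 14.0) and 3.75-fold (95% interval 1.59 to 15.7) higher, and MER67D was 2.42-fold lower. The signs of the 3 group medians in the knockout depend on the settings. Those of other rodent LTR and MER LTR turn positive under DESeq2 size factors. That of ancient LTR turns negative under the total, the upper quartile and each other minimum count.

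SINEs showed small differences between the ages. The 33 B1/B2 and related families had a median of 0.24, where 20 intervals lay above 0 and 10 below, and 0 were past 2-fold in either direction. B1_Mm, a young B1 entry, was at 14007 CPM at 10dpp and 11435 CPM at 20dpp (-0.29, -0.31 to -0.27), and B2_Mm2 at 34584 and 30179.8 CPM (-0.20, -0.21 to -0.18). The lowest was B2_Mm1a at -0.40. PB1D10, ID4 and B1F2, chosen after their values were seen, had positive ratios, 0.41, 0.47 and 0.37. In the control pair these 6 entries had, in the same order, -0.42, -0.35, -0.52, 0.32, 0.40 and 0.17. FLAM_A, the highest, rested on 31 counts at 10dpp and 362 at 20dpp (0.96, 0.42 to 1.53). Many copies of a SINE lie in or near genes, and reads of gene transcripts that contain a copy cannot be separated from the element's own RNA.

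MIR and LINE-2 elements are ancient mammalian repeats that no longer move and whose copies are common within introns. Of 16 entries, 13 had intervals above 0 and 0 below, none reached 2-fold, and the median was 0.35, against 0.34 in the control. MIR stood at 8136 CPM at 10dpp and 10289 CPM at 20dpp (0.34, 0.31 to 0.36), MIRc at 0.44 and L2c at 0.50. L3b was the highest at 0.71 (0.58 to 0.84). L2 was near 0 (0.01, -0.02 to 0.05), with a sign that depends on the scaling, and MamSINE1 (-0.04) and L5 (-0.23) also had intervals across 0.

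DNA transposons held 11 of the 54 families past 2-fold on the higher side and 11 of the 29 on the lower side, among 144 compared. That is 7.64% of the group on either side, beside 7.48% of all families on the higher and 4.02% on the lower side, and the counts are 6 and 14 with the total as scaling. The group had a median of 0.05 that turns negative under the total, the upper quartile or no minimum count. FordPrefect, of the hAT superfamily, had the lowest ratio of all 722 families. It stood at 1884 CPM at 16.5dpc, 543 CPM at 10dpp and 86.1 CPM at 20dpp in the knockout, so that it was 6.31-fold lower at 20dpp than at 10dpp (95% interval 5.74 to 6.93). The controls had 645, 879.9 and 309 CPM at the same ages. The knockout level was lower at each later age, the control level was highest at 10dpp, and the 20dpp knockout library was the lowest of the 6. Tigger12A, Tigger12 and Tigger11a, of the pogo-like Tigger group, were 6.15-fold, 4.39-fold and 3.43-fold lower, on 42, 50 and 26 counts at 10dpp against 41, 68 and 46 in the deeper 20dpp library. Charlie13a, a hAT element, was 2.78-fold lower (95% interval 2.07 to 3.67), and MER91C, the highest of the group, 3.59-fold higher (95% interval 2.61 to 5.29). All of these lay on the same side in the control pair. There Tigger12A, Tigger12, Tigger11a and Charlie13a were 2.38-fold, 6.18-fold, 1.80-fold and 3.08-fold lower, and MER91C was 2.18-fold higher.

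The control pair of the same ages, a heterozygous pool at 10dpp and a wild-type pool at 20dpp, shares no library with the knockout pair. In it, 72 of 728 families were higher at 20dpp by 2-fold or more (9.89%) and 29 lower by 2-fold or more (3.98%). Across the 717 families compared in both genotypes the log2 ratios had a Spearman correlation of 0.674 and a Pearson correlation of 0.670, given as a description, since families of a library share its depth and scaling and are not independent. Of the 54 families higher in the knockout, 52 were compared in the control, where 27 were also at least 2-fold higher and 45 had an interval above 0. Of the 29 lower ones, 17 were also at least 2-fold lower and 25 had an interval below 0. Over all 728 families of the control pair, 302 had an interval above 0 and 258 below. The families high or low at 20dpp in the knockout were thus mostly on the same side of 0 in the control.

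The knockout and control intervals did not overlap in 288 of these 717 families, and in 48 of them the 2 ratios also differed by 2-fold or more. Those 48 comprised 9 with the higher ratio in the knockout (1.26% of 717) and 39 with the lower ratio (5.44%). The 9 were the 3 young LINE-1 subfamilies, IAPEy-int, RLTR10C, L1M3d, MER47A, MER70B and MLT1E3. For L1Md_T the log2 ratio was 1.97 in the knockout and -0.0032 in the control, a difference of 1.97, which was the largest of the 9. The differences were 1.57 for L1Md_Gf and 1.29 for L1Md_A. IAPEy-int and RLTR10C differed by 1.18 and 1.17, and MLT1E3 by 1.04. MER47A, a DNA transposon, differed by 1.17, MER70B by 1.06 and the ancient L1M3d by 1.31, MER70B and L1M3d with knockout intervals across 0. This split also depends on the scaling. The total as scaling shifts every knockout log2 ratio by -0.16 and hardly moves the control ratios, whose libraries had TMM factors of 1.025 and 1.022. MER70B and MLT1E3 would then fall under 2-fold, and the intervals of L1M3d would overlap.

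The 39 families with the lower knockout ratio, 5.44% of all 717, are given here beside the size of their group. They were 9 of 143 DNA transposons, 8 of 131 other rodent LTR, 7 of 85 ancient LTR and 6 of 48 MER LTR families. There were also 4 of 16 IAP, 3 of 25 mouse ERV1, 1 of 31 other rodent LINE-1 and 1 of 88 MaLR entries. The control interval lay above 0 in 35 of the 39, whereas the knockout interval spanned 0 in 21, lay below 0 in 12 and above 0 in 6. LTR68 had 8.93 and 12.4 CPM in the knockout and 6.03 and 202 CPM in the control, a difference in log2 ratio of -4.58. IAPLTR3 had 20.7 and 29.6 CPM against 17.2 and 549.9 CPM in the control (-4.48), and MER52-int 22.9 and 16.5 against 15.1 and 185 CPM (-4.09). In these 3 families the 20dpp control library was far above the other 3 libraries. The next differences ran from -2.15 for RLTR13D6, -2.01 for RLTR9A2, -2.005 for Ricksha_c, -1.96 for MER90a and -1.94 for MurERV4_19-int to -1.91 for LTR85a and -1.86 for RMER21B. With 1 library a group, none of these differences between genotypes could be tested.

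**Figure D5:**
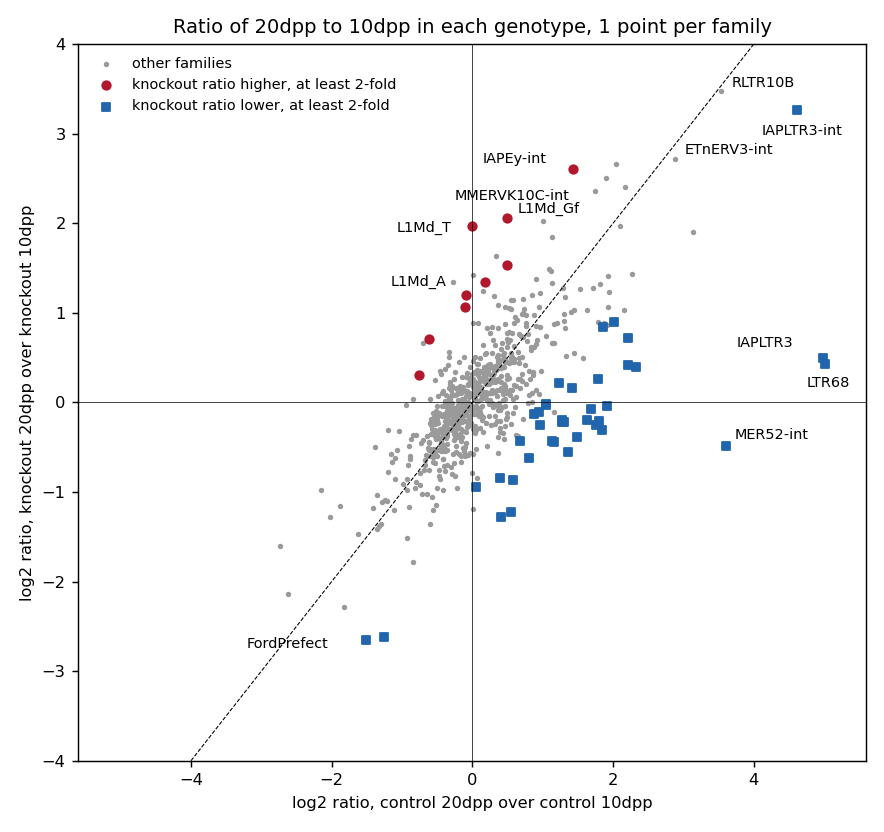
Log2 ratio of 20dpp to 10dpp in the control (horizontal axis) and in the knockout (vertical axis), 1 point per family compared in both, with a dashed line where both are equal, red circles for the 9 families with the higher knockout ratio and blue squares for the 39 with the lower. L1Md_T lies near 0 in the control and at 1.97 in the knockout, while RLTR10B lies near the line at 3.53 and 3.48.

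A test was possible only for the age difference averaged over both genotypes, with edgeR's quasi-likelihood test on all 6 libraries and Benjamini-Hochberg adjustment at 0.05. It says nothing on the knockout pair alone, and it uses the libraries described above. Of 743 families tested, 40 passed as higher at 20dpp (5.38%) and 25 as lower (3.36%), with 2 residual degrees of freedom. At an unadjusted p under 0.05 there were 141 and 110. Of the 53 tested families that were at least 2-fold higher in the knockout pair 28 passed as higher, and of the 29 lower ones 11 passed as lower, counts that are not independent of that pair. Leaving out either 10dpp library left 0 calls in both directions with the same test, with 76 higher and 39 lower at an unadjusted p under 0.05 without the control 10dpp library and 59 and 36 without the knockout 10dpp library. Without the control 20dpp library 25 higher and 2 lower calls were made, and without the knockout 20dpp library 69 and 18.

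Over all families the test passed 5.38% as higher and 3.36% as lower. By group, it passed 5 of 16 IAP, 4 of 5 ETn/MusD, 4 of 9 MMERVK10C and 6 of 25 mouse ERV1 entries as higher and 0 as lower. Of 132 other rodent LTR entries 9 passed as higher, near the share over all families, and 2 as lower. RLTR10B rose by 3.51 ± 0.16 (SE) on the log2 scale from 10dpp to 20dpp over both genotypes (edgeR adjusted p = 0.00059). MMERVK10C-int and ETnERV3-int rose by 2.22 ± 0.21 (adjusted p = 0.012) and 2.80 ± 0.13 (adjusted p = 0.00059), and MMVL30-int by 1.14 ± 0.14 (adjusted p = 0.015), all by edgeR. The other rodent LINE-1 families had 8 of 31 lower and 0 higher, and the ancient LINE-1 families 5 of 76 lower and 0 higher, against 2 higher at an unadjusted p under 0.05 and 0 with DESeq2. HAL1-3A_ME fell by 1.39 ± 0.20 (SE, edgeR adjusted p = 0.021). Of 150 DNA transposons 9 passed as higher and 6 as lower, both near the shares over all families. FordPrefect was at -1.91 ± 0.76 (edgeR adjusted p = 0.14). None of the 3 young LINE-1 subfamilies passed with edgeR, 1 had an unadjusted p under 0.05 and 1 passed with DESeq2. L1Md_T had an average of 1.083 ± 0.49 (edgeR adjusted p = 0.18), with a ratio that was high in the knockout and near 0 in the control. In edgeR the MERVL, MER LTR and MIR/LINE-2 entries had 0 calls in either direction. At an unadjusted p under 0.05 MERVL had 2 higher, MER LTR 6 higher and 5 lower and MIR/LINE-2 11 higher entries, and DESeq2 called 0 in MERVL, 2 higher and 1 lower in MER LTR and 3 higher in MIR/LINE-2.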

How the data were processed

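RNA from whole testis was sequenced from a stranded mRNA library kit, per the labels. The authors deposited 1 table per library of estimated counts per repeat family, which need not be whole (7.91% to 13.5% of values were whole within 1e-06). Reads were aligned with Bowtie to mm9, per the submitters' processing notes. Not given in the sources used here are tool versions, the repeat annotation, how shared reads were divided and whether strand was used, so sense and antisense RNA cannot be told apart.

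Counts were scaled to CPM with TMM factors over the 6 libraries (0.900 to 1.07). For each family reaching 50 counts over both libraries, the log2 ratio of 20dpp to 10dpp was taken after adding 0.5 counts, with an exact 95% Clopper-Pearson interval from the rounded counts, conditional on their sum. Of the 722 families, 114 had under 50 counts at 10dpp. The age difference over both genotypes was tested on rounded counts with edgeR 4.0.16 (quasi-likelihood F test, age and genotype as terms, default expression filter, R 4.3.3), with Benjamini-Hochberg adjustment. The SE given for this fit is the size of the log2 difference divided by the square root of the F statistic. DESeq2 1.42.0 was an alternative. The scripts were tested on simulated counts.

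Families were put in 15 groups by name patterns, and 2 families are in no group. Named are the 15 highest and 10 lowest ratios whose interval excludes 0, up to 10 families with the largest differences from the control ratio in each direction, the highest and lowest of each group, 26 families always named, and any member of a group of at most 16. Families and groups were chosen with earlier results of these data known.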

Additional observations from a re-analysis of the deposited data

Results flagged for a closer look

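Of 717 families compared in both genotypes, 42 had a knockout ratio on one side of 0 and a control ratio on the other, with both counting intervals excluding 0, and 7 of these are named families. In 4 of the 7 the knockout was higher at 20dpp than at 10dpp and the control lower. L1Md_A had log2 ratios of 1.20 in the knockout and -0.09 in the control, a difference of 1.29. IAPLTR1_Mm had 0.16 and -0.23 (difference 0.39), L1_Mm 0.13 and -0.30 (difference 0.43) and MERVL-int 0.10 and -0.22 (difference 0.32). The knockout ratios of L1_Mm and MERVL-int turn negative when the total is used for scaling. That scaling lowers every log2 ratio by 0.16, about as much as the whole knockout ratio of IAPLTR1_Mm. In the other 3 the knockout was lower and the control higher. RLTR13D6 had -0.31 and 1.84 (difference -2.15), RMER21B -0.38 and 1.48 (difference -1.86) and LTRIS3 -0.86 and 0.57 (difference -1.44). With 1 library a group the difference was not tested, and the control changes from heterozygous to wild type between these ages.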

How the results depend on the processing

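The 54 families at least 2-fold higher became between 37 and 61 under the 9 alternatives of scaling, minimum, added counts and thinning of the 20dpp library, always within 1.5 times of 54. The 29 lower families became 46 with the total as scaling, 56 with no minimum, 15 with a minimum of 200 counts and 16 with a minimum of 50 counts at 10dpp alone, so the number of lower families rests on sparse ones. Among named families whose interval excludes 0, those that changed sign with the total as scaling were L1_Mm (-0.0254), MERVL-int (-0.0604) and MT2A (-0.0771), and MT2A did so with the upper quartile (-0.0070). For the age difference over both genotypes, DESeq2 gave 77 higher and 41 lower families against 40 and 25 with edgeR, and leaving out 1 library at a time gave 0 to 69 higher and 0 to 18 lower. Those fits leave 1 library in an arm and assume that it varies like the rest, and the cause of the losses was not tested. No paired analysis was possible because each group holds 1 library. Families under 50 counts at 10dpp, 17 of the 54 higher ones, have the widest intervals.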
